A study of Mus musculus with 2 samples.

Results

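Hematopoietic stem cells (HSC) of the mouse held 830 open chromatin regions that lay between genes, more than 1 kb and at most 5 kb upstream of the transcription start site (TSS) nearest to them among protein-coding genes. They were 2.63% of the 31532 regions that remained when the 53241 overlapping peaks of the strictest deposited list were merged. A region belonged to this upstream flank when its summit, the base of highest signal in its strongest peak, fell outside every protein-coding gene body of GENCODE M21 and in that distance range. Within that list the choice used only the position of the summit, but signal decided which peak of a merged region gave the summit. A peak in the flank that overlapped a stronger peak at a promoter thus counted as part of a promoter region. The list itself was filtered on a comparison of both libraries. Sequence was not used by the choice, while signal, width and replicate values could be constrained by these steps. For comparison, 11226 regions had their summit within 1 kb of a coding TSS (promoter regions), 1077 lay within 5 kb past the 3′ end of a gene (downstream flank), 8406 lay farther from genes (far intergenic), and the other 9993 lay inside gene bodies.

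The study assayed 1 group, HSC taken as primary cells from adult C57BL/6J mice 5 to 6 weeks old, in 2 libraries labelled biological replicates 1 and 2. No treatment, transgene or allele was named. ATAC-seq cuts accessible DNA with a transposase, and stretches cut often are called as peaks. Both libraries carried the same donor label, so the spread between them may be technical; a starting quantity of 50000 cells was stated for replicate 2 only, and how the cells were sorted is not given in the sources used here. The files hold peak lists and no read counts, so the depth behind each value is unknown. There were no control samples and no second cell type, so every comparison below sets one class of region, or one replicate, beside another.

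Promoters recruit the general transcription machinery at the TSS, and most of them in mammals are rich in GC and CpG. Short distances upstream, genes can carry enhancers, insulators bound by CTCF, start sites of divergent noncoding RNAs, and alternative promoters that an annotation may lack. In HSC, enhancers are known to be bound by GATA2, RUNX1, the ETS factor PU.1, TAL1 and MEIS1, and elements a few kilobases upstream of Tal1, Gata2 and Il7r were described in mouse transgenes and progenitor cells before these data.

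Upstream regions of 5 genes in the main list carried the findings that follow, and their sequences, 201 bp centred on the summit, are given on the plus strand of GRCm38 (mm10). Capitals mark exact matches to the motifs named after each gene, on either strand. Kif14, a mitotic kinesin, is shown for the second highest signal of all 830, with SP/KLF (GGGCGG) and NF-Y (CCAAT) motifs. Ikzf2 and Meis1, transcription factor genes active in HSC, are the strongest of the stem cell list; the Ikzf2 region held a RUNX core (TGTGGT) and an NF-Y motif, and the Meis1 region an E-box (CAGCTG), NF-Y motifs and an SP/KLF motif. Gp9, which encodes a subunit of the platelet receptor for von Willebrand factor, is shown for a GATA motif (AGATAA) beside a RUNX core. Mbnl1, a splicing regulator, had a pair of regions with the PU.1 motif (GAGGAAGT) and the MEIS motif (TGACAG). The Tal1 region, absent from the main list and taken from the pooled list, lies where an upstream element of that gene is known. It is shown with its SP/KLF motifs.
Kif14, chr1:136466175-136466375: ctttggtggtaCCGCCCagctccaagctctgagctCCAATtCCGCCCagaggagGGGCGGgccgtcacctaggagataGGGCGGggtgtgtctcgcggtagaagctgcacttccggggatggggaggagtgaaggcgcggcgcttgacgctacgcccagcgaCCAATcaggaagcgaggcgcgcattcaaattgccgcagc
Ikzf2, chr1:69689100-69689300: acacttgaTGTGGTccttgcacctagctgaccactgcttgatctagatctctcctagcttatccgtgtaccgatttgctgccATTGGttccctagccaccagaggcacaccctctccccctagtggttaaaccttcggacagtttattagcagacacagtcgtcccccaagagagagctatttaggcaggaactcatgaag
Meis1, chr11:19020432-19020632: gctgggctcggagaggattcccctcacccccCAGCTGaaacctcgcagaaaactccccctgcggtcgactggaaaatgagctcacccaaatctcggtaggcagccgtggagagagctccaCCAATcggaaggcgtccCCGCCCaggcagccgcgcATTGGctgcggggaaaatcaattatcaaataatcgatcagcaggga
Gp9, chr6:87775967-87776167: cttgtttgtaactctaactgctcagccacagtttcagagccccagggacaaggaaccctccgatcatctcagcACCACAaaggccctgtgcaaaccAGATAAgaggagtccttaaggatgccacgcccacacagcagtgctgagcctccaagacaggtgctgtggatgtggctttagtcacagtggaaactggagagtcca
Mbnl1 nearer, chr3:60469224-60469424: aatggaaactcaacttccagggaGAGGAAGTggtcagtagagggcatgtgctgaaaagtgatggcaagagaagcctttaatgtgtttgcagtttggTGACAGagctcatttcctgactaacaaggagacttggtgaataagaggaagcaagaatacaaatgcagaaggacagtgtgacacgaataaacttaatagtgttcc
Mbnl1 farther, chr3:60468786-60468986: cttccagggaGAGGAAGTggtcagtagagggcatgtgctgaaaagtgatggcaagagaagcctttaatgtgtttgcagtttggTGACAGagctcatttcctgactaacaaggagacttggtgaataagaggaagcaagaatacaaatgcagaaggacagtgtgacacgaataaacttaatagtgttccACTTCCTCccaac
Tal1, chr4:115052672-115052872: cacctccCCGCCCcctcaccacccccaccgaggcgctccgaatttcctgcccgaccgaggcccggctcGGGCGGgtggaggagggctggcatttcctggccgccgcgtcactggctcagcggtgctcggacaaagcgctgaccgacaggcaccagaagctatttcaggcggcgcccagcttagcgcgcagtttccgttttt

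Open regions were far less dense in the upstream flank than at the TSS, and from 1.5 to 5 kb they were less dense than from 5 to 9 kb. Counted per megabase of intergenic sequence whose nearest coding TSS lay downstream of it, there were 586.6 regions in the first 500 bp upstream of a TSS and 34.6 between 500 and 1000 bp. From 1000 to 1500 bp the density was 20.2 regions per Mb (exact Poisson 95% interval 17.3 to 23.4), and in the 7 bins of 500 bp from there to 5 kb it lay between 10.6 and 13.0. Over the whole upstream flank it was 13.4 per Mb (12.5 to 14.4), against 16.6 (15.6 to 17.6) in the downstream flank, 5.74 (5.62 to 5.86) in far intergenic sequence and 11.9 over the genome. The density was 12.4 per Mb (11.5 to 13.4) from 1.5 to 5 kb, against 15.6 (14.6 to 16.8) from 5 to 9 kb, intervals that do not overlap. The bin from 9500 to 10000 bp, at 11.1 per Mb (8.49 to 14.2), lay within the range of the bins from 1.5 to 5 kb. The lower density from 1.5 to 5 kb than from 5 to 9 kb was present in each replicate's own irreproducible discovery rate (IDR) list, at 13.7 against 18.2 per Mb in replicate 1 and 7.61 against 9.78 per Mb in replicate 2. The intervals cover counting error only, and this pair of distance ranges was chosen after the densities were seen.

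**Figure D1:**
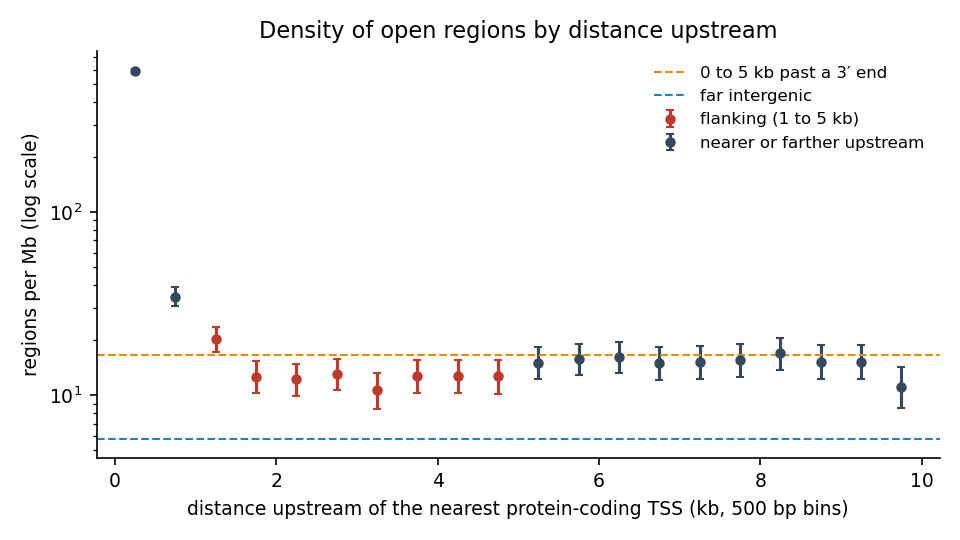
Open regions per Mb (log scale) against distance upstream of the nearest coding TSS in bins of 500 bp, with exact Poisson 95% intervals; red points are the upstream flank and dashed lines the downstream flank (16.6) and far intergenic sequence (5.74). Density was 586.6 per Mb at the TSS, 10.6 to 13.0 from 1.5 to 5 kb, 15.0 to 16.9 from 5 to 9.5 kb, and 11.1 in the last bin.

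The 830 regions flanked 809 genes, 3.7% of the 21853 protein-coding genes. A single region flanked 788 of these genes, 21 genes had 2, and none had 3 or more. The summits lay a median of 2724.5 bp upstream. The 38 regions in the first 100 bp inside the inner edge of the rule had a median signal of 6.76, and the 51 in the last 100 bp outside it, counted as promoters, 6.39. At the outer edge the 21 regions in the last 100 bp inside had a median of 7.37, and the 21 in the first 100 bp outside 6.14. Of the 830, 143 (17.2%) also lay within 5 kb past the 3′ end of another gene and 21 (2.53%) also lay upstream of a second gene on the other strand.

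Flanking regions were narrower and had lower signal than any other class compared. Their median width was 437 bp, against 836 bp for promoter regions, 506 bp for the downstream flank and 518 bp for far intergenic regions. Signal, the authors' value for each peak (its scaling is not given in the sources used here), had a median of 6.57 in flanking regions, against 9.37 in promoter regions, 7.72 in the downstream flank and 8.37 in far intergenic regions. Above the median signal of all regions (background 49.9%) stood 23.9% of flanking regions, against 61.6% of promoter regions, 39.0% of the downstream flank and 50.4% of far intergenic regions. In Fisher's exact test the log2 odds ratios were -2.36 (SE 0.12, adjusted p = 7.4e-100) against promoter regions, -1.03 (SE 0.15, adjusted p = 1.13e-11) against the downstream flank and -1.69 (SE 0.12, adjusted p = 2.53e-49) against far intergenic regions. Above the median width (background 49.9%) were 25.9% of flanking regions, against 77.5% of promoter regions, 34.0% of the downstream flank and 37.0% of far intergenic regions. The nearest of these, the downstream flank, differed by a log2 odds ratio of -0.56 (SE 0.15, Fisher's exact test, adjusted p = 4.96e-04). All these are two-sided Fisher's exact tests on counts of regions, with Benjamini-Hochberg adjustment over 66 tests, 32 of which passed 0.05. Regions are not replicates, so a p-value compares the classes within this list and says nothing of other mice.

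**Figure D2:**
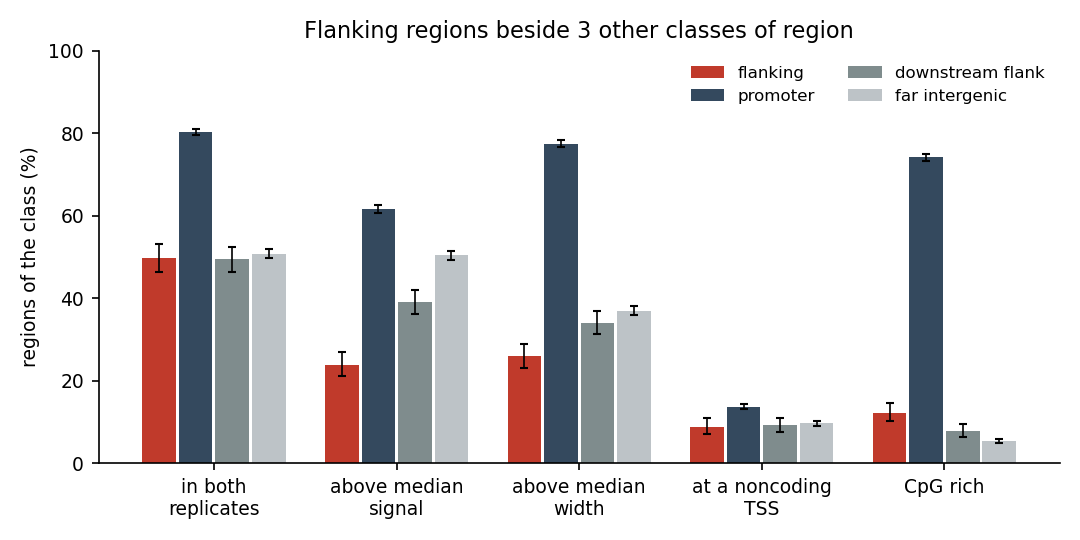
Percent of regions in each class that were in both replicates' IDR lists, above the median signal, above the median width, at a noncoding TSS or CpG rich, with Wilson 95% intervals. Flanking regions (red) had the lowest shares above the median signal (23.9%) and width (25.9%), and a CpG-rich share of 12.2% between the 74.1% of promoter regions and the 5.33% of far intergenic regions.

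Signal in the flank differed with what lay beside it. Of the 809 flanked genes 426 (52.7%, Wilson 95% interval 49.2 to 56.1) had a promoter region, beside 51.5% of all protein-coding genes. The 438 regions upstream of genes with a promoter region had a median signal of 5.88, and the 392 upstream of genes without one had 7.47. In the other classes the medians lay closer together: downstream flank regions had medians of 7.65 where the nearest gene had a promoter region and 7.85 where it had none, and far intergenic regions 8.39 with such a promoter region and 8.33 without. When the 830 were ranked by signal and cut into 4 groups of 207 or 208, the nearest gene had a promoter region for 28.8% (23.1 to 35.3) of the highest group, 43.3% and 63.8% of the next ones, and 75.4% (69.1 to 80.7) of the lowest. Distance to the nearest other region moved with this, with a median of 13072 bp in the highest group and 2213 bp in the lowest. The class definitions tie these measures together. A flanking summit lies at most 5 kb from a TSS and a promoter summit within 1 kb of one, so the promoter region can itself be the near neighbour. Far intergenic regions have no such limit of distance, so the classes are not alike in this. In each class the regions with no neighbour within 5 kb had the higher signal: 7.82 against 5.61 for a neighbour within 2 kb in the upstream flank, 8.09 against 6.62 in the downstream flank, and 8.71 against 6.90 in far intergenic sequence. The part of neighbouring regions in the signal values was not tested. These medians are descriptions with no test.

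**Figure D3:**
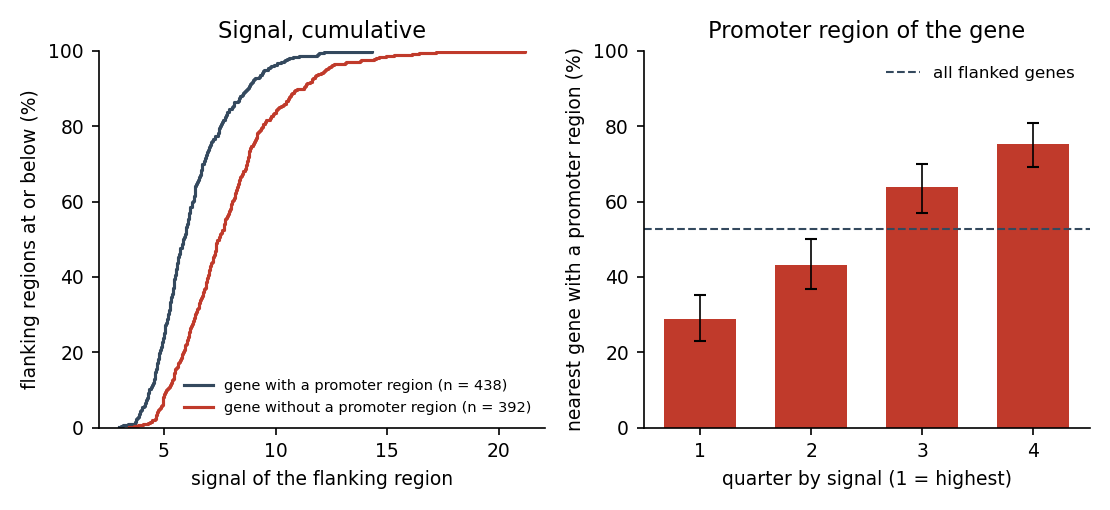
Left, cumulative percent of flanking regions by signal for genes with a promoter region (median 5.88, n = 438) and without one (median 7.47, n = 392). Right, percent of flanking regions whose nearest gene had a promoter region, in 4 groups by signal with Wilson 95% intervals: 28.8% in the highest group and 75.4% in the lowest, with the 52.7% of all flanked genes dashed.

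By number, flanking regions were more frequent upstream of genes with a promoter region, at 15.3 per Mb (13.9 to 16.9), than upstream of genes without one, at 11.8 per Mb (10.7 to 13.0). Where both were present the flanking region was the stronger in 149 of 438 cases (34.0%). Across these 438 pairs the signals of flanking and promoter region had a Spearman rho of 0.02, a description across regions of the same libraries.

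The 12 regions of highest signal followed the same pattern: 10 lay upstream of genes without a promoter region. The highest, 2415 bp upstream of Gm13283 on chromosome 4, had a signal of 24.7 in replicate 1 and 13.3 in replicate 2, and lay 125 bp from the start of the antisense RNA Gm13274 and 140 bp from a curated RefSeq start of the coding gene Gm13286. The Kif14 region printed above had 19.5 in replicate 1 and 12.1 in replicate 2. RefSeq places a predicted Kif14 start 26 bp from its summit, and the window was CpG rich. The region 4907 bp upstream of Gm11273 had 17.6 in replicate 1 and 11.97 in replicate 2 and lay at the zinc finger pseudogene Zfp389, 208 bp from its start. The region 4930 bp upstream of Slfn14, a schlafen family gene, had 16.7 in replicate 1 and 13.6 in replicate 2 and lay at the processed transcript AA465934. Each of these first 4 thus lay at a noncoding start, a RefSeq coding start or both.

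Among the remaining 8, Cpeb4, an RNA-binding regulator of translation, had 14.5 in replicate 1 and 13.4 in replicate 2 at 1431 bp, where RefSeq has a curated Cpeb4 start 160 bp away, and a second, weaker region 51 bp from the first. The olfactory receptor gene Olfr984 had 14.1 in replicate 1 and 10.9 in replicate 2. Sgca, a sarcoglycan of muscle, had 16.7 in replicate 1 and 9.51 in replicate 2, and Wfdc16 15.4 in replicate 1 and 9.88 in replicate 2. The 2 whose genes had a promoter region were Ogfrl1, with 13.7 in replicate 1 and 8.81 in replicate 2, and 4922502D21Rik, with 15.7 in replicate 1 and 9.61 in replicate 2. All 12 were higher in replicate 1, as was the median of the class.

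Some flanking regions lay within 1 kb of start sites that RefSeq lists and GENCODE M21 does not list as coding. A RefSeq transcript of a protein-coding gene began within 1 kb of the summit in 90 of 830 flanking regions (10.8%, 8.91 to 13.1), against 16 of 1077 in the downstream flank (1.49%) and 93 of 8406 far intergenic regions (1.11%). The log2 odds ratios were 2.98 (SE 0.39, Fisher's exact test, adjusted p = 5.48e-19) against the downstream flank and 3.44 (SE 0.22, adjusted p = 1.20e-45) against far intergenic regions. In 83 of the 90 it was a transcript of the flanked gene itself. With curated transcripts alone it was 24 flanking regions (2.89%), against 5 in the downstream flank (0.464%) and 39 far intergenic regions (0.464%). These tests were adjusted over 6 comparisons and chosen after the strongest regions had been seen. RefSeq and GENCODE share much of their evidence, and nearness to a gene's other starts is part of the flanking rule. The rule itself thus favors a higher share in the flank, so no conclusion is drawn from these tests. The 90 were CpG rich in 35.6% of cases, against 9.32% of the other 740, and 54 of them were upstream of genes without a promoter region, against 338 of the 740. Examples were Dao, a D-amino acid oxidase, with 13.3 in replicate 1 and 10.5 in replicate 2 at 4105 bp and a predicted start 37 bp away, and Fap, a protease of fibroblasts, with 13.1 in replicate 1 and 9.56 in replicate 2 at 1117 bp and a predicted start 317 bp away.

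Noncoding starts accounted for a similar share. A GENCODE noncoding TSS lay within 1 kb of 73 flanking summits (8.80%), against 13.7% of promoter regions, 9.19% of the downstream flank and 9.68% of far intergenic regions, with a background of 9.15% over all regions. By Fisher's exact test the log2 odds ratio passed against promoter regions (-0.71, SE 0.18, adjusted p = 1.16e-04), but not without replicate 1 (-0.46, adjusted p = 0.0533). It did not pass against the downstream flank (-0.07, SE 0.23, exact adjusted p = 0.89) or far intergenic regions (-0.14, SE 0.18, exact adjusted p = 0.582). The 73 comprised 25 lincRNAs, 14 processed transcripts, 12 antisense RNAs and smaller numbers of pseudogenes and other kinds. In 60 of the 73 (82.2%) the RNA ran on the strand opposite to the flanked gene, a share that is not set beside the other classes here. One region at a noncoding start lay 2383 bp upstream of Il1b, which encodes the inflammatory cytokine interleukin 1 beta: it had 11.2 in replicate 1 and 8.50 in replicate 2, and the antisense RNA Il1bos began 393 bp away. Regions at noncoding starts were in both IDR lists in 63.0% of cases, against 48.5% of the other flanking regions. CpG-rich windows showed a like difference, at 65.3% against 47.6%.

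In CpG content the flank stood between promoters and distal regions. By the measure used, 501 bp around the summit with at least 50% GC and an observed to expected CpG ratio of at least 0.6, 101 flanking regions (12.2%) were CpG rich, against 74.1% of promoter regions, 7.71% of the downstream flank and 5.33% of far intergenic regions, with a background of 29.6%. Fisher's exact test gave log2 odds ratios of -4.37 (SE 0.16, adjusted p = 4.96e-284) against promoter regions, 0.73 (SE 0.22, adjusted p = 0.00317) against the downstream flank and 1.30 (SE 0.17, adjusted p = 5.27e-12) against far intergenic regions. Without replicate 1 the difference from the downstream flank was 0.37 and no longer passed (Fisher's exact test, adjusted p = 0.288). The CpG-rich share was 22.4% from 1000 to 1500 bp and 3.37% from 4500 to 5000 bp. The noncoding share was also highest in the first bin, at 15.3%. Presence in both replicates had no such trend, with 57.6% in the first bin, 40.2% from 2500 to 3000 bp and 60.7% in the last.

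The PU.1, RUNX core and GATA motifs were more frequent in the flank than at promoters and near their share over all regions. PU.1 motifs were in 8.43% of flanking windows of 201 bp (background 7.85%), against 3.28% of promoter windows, 7.61% of downstream flank windows and 10.2% of far intergenic windows. In Fisher's exact test the flank differed from promoters (log2 odds ratio 1.45, SE 0.20, adjusted p = 1.33e-10) and missed the threshold against far intergenic regions (-0.29, SE 0.19, adjusted p = 0.204). Without CpG-rich regions the difference from promoters was 0.49 and no longer passed (Fisher's exact test, adjusted p = 0.0937). Windows of the same length 500 bp to either side of the flanking summits held it in 1.81% and 1.33%. The RUNX core was in 23.7% of flanking windows (background 23.1%), against 9.83% of promoter windows and 29.9% of far intergenic windows, with 14.2% and 15.5% to the sides. Both differences passed Fisher's exact test (log2 odds ratio 1.52, SE 0.13, adjusted p = 1.07e-27 against promoters, and -0.45, SE 0.12, adjusted p = 5.68e-04 against far intergenic regions). Without CpG-rich regions the RUNX core still differed from promoters, at 0.64 (Fisher's exact test, adjusted p = 4.62e-05). GATA motifs were in 6.63% (background 6.53%), against 2.59% of promoter windows (Fisher's exact test, log2 odds ratio 1.43, SE 0.22, adjusted p = 1.58e-08) and 9.23% of far intergenic windows (-0.51, SE 0.21, adjusted p = 0.0241). The GATA difference from promoters was 0.40 without CpG-rich regions and no longer passed (Fisher's exact test, adjusted p = 0.262). Unlike PU.1 and RUNX, GATA was no more frequent at the flanking summits than 500 bp to the sides, where 9.04% and 7.95% of windows held it. The difference between GATA and the other motifs was not tested, and the GATA difference from far intergenic regions no longer passed in 7 of the alternatives tried, among them each replicate on its own, as listed at the end.

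The strong CTCF core (CCANNAGGGGGC) was in 31 flanking windows (3.73%; background 2.22%), against 0.739% of promoter windows, 4.27% of downstream flank windows and 3.06% of far intergenic windows. Fisher's exact test gave a log2 odds ratio of 2.40 against promoters (SE 0.31, adjusted p = 8.83e-11) and 0.32 against far intergenic regions (SE 0.28, adjusted p = 0.396). The difference from promoters was 0.023 among regions above the median width and no longer passed (Fisher's exact test, adjusted p = 1). Motifs typical of promoters were rarer in the flank than at promoters: SP/KLF was in 18.8% against 59.4% (background 28.6%), NF-Y in 19.3% against 33.9% (25.2%) and NRF1 (GCGCNTGCGC) in 1.08% against 7.50% (2.99%). Their log2 odds ratios in Fisher's exact test were -2.66 for SP/KLF (SE 0.13, adjusted p = 3.36e-117), -1.10 for NF-Y (SE 0.13, adjusted p = 2.02e-18) and -2.81 for NRF1 (SE 0.47, adjusted p = 4.65e-16). Without CpG-rich regions NRF1 differed by -0.58 and no longer passed (Fisher's exact test, adjusted p = 0.616). SP/KLF was nonetheless more frequent in the upstream flank than in the downstream flank, at 13.1% (log2 odds ratio 0.62, SE 0.18, Fisher's exact test, adjusted p = 0.00192), and than in far intergenic regions, at 11.6% (0.82, SE 0.14, adjusted p = 4.45e-08). The first of these was 0.19 among regions above the median width and no longer passed (Fisher's exact test, adjusted p = 0.829). In all, 21 of 51 motif comparisons passed. The RUNX core is part of a longer RUNX motif also counted; a motif match is a match of letters, not a bound site.

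**Figure D4:**
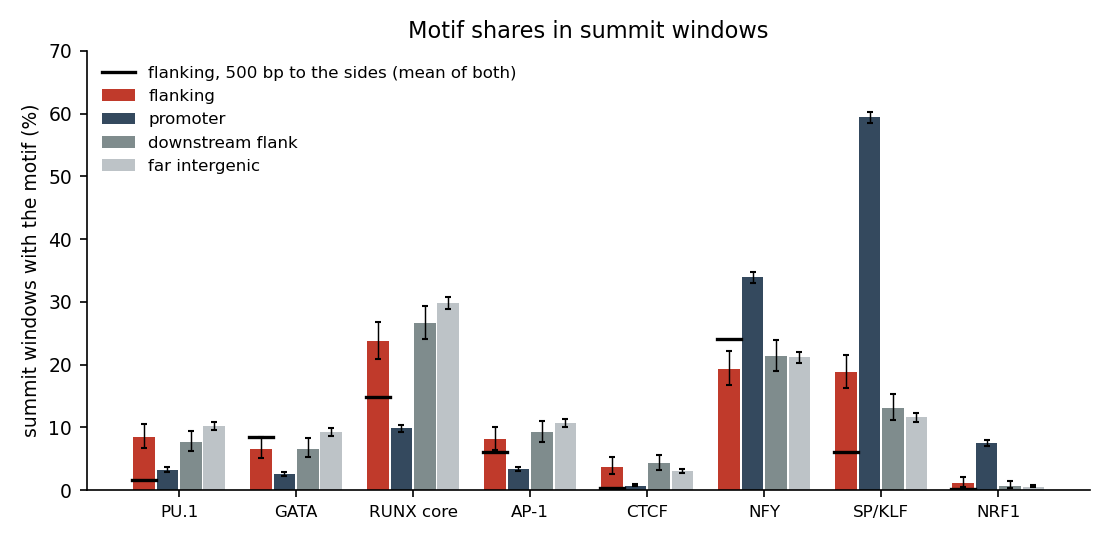
Percent of summit windows of 201 bp with each motif in the 4 classes, with Wilson 95% intervals; black lines are the mean of flanking windows 500 bp to the left and right. PU.1 (8.43%) and the RUNX core (23.7%) in flanking regions stood above promoter regions (3.28% and 9.83%), and SP/KLF (18.8%) stood far below them (59.4%).

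Among the 830, 541 windows held none of the PU.1, GATA and RUNX core motifs, 257 held 1 of the 3, 31 held 2, and 1 held all 3. That one lay 3444 bp upstream of Ndc1, a nuclear pore protein, with 8.13 in replicate 1 and 4.54 in replicate 2. The PU.1 windows of highest signal were those of Dao and Fap given above and that of Clec4n, a C-type lectin of macrophages, with 13.1 in replicate 1 and 7.14 in replicate 2 at 2119 bp. Regions with a PU.1 motif were in both IDR lists in 62.9% of cases, against 48.6% without one. The shares were 41.8% with a GATA motif against 50.3% without one, and 32.3% with the CTCF core against 50.4% without it; these shares were not tested. The strongest CTCF window lay 2727 bp upstream of Aif1, a calcium-binding protein of macrophages, with 12.5 in replicate 1 and 7.25 in replicate 2.

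The pair upstream of Mbnl1 was a repeat of one sequence. Its summits lay 438 bp apart, 3506 and 3944 bp upstream of the TSS, and the printed windows share an unbroken run of 188 identical bases. Signal was 8.63 in replicate 1 and 8.27 in replicate 2 at the nearer one, and 8.57 in replicate 1 and 7.44 in replicate 2 at the farther one. Reads from such a run cannot be assigned to one copy by sequence, so the values of the pair are uncertain. Of all 830 summit windows, 31 (3.73%) had another match elsewhere on the chromosomes of at least 90% identity over at least 101 bp; none of the 12 strongest was among them, and no window matched the mitochondrial genome. How the authors treated reads with several matches is not given in the sources used here.

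Of the other genes with 2 regions, 3 are given here, named after their values were seen. Vav1, a signalling exchange factor of blood cells, had 4.83 and 6.41 in replicate 1 and 3.91 and 3.53 in replicate 2 at 2070 and 3527 bp, all 4 values below the medians of the class. Neither Vav1 region was in the IDR list of replicate 2. Samhd1, a nucleotide hydrolase that restricts retroviruses, had regions at 2891 and 3792 bp, both with a PU.1 motif. Their signals were 4.83 and 4.72 in replicate 1 and 4.43 and 4.42 in replicate 2, and both regions were in the IDR list of replicate 1 only. Bcr, a signalling protein known from its fusion with ABL1, had its pair at 1055 and 4693 bp with 6.44 and 5.59 in replicate 1, against 3.95 and 3.58 in replicate 2. The nearer Bcr region was in the IDR list of replicate 2 only, and the farther in that of replicate 1 only.

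Of 318 genes on 17 lists of blood cell, housekeeping and other tissue genes, 26 (8.18%) had a flanking region, beside the 3.7% of all protein-coding genes; these lists hold well studied genes and were not drawn at random, so the 2 shares are not of like genes. Stem cell transcription factors had 3 of 30. At Ikzf2, which encodes the factor Helios, signal was 7.64 in replicate 1 and 5.72 in replicate 2 at 1955 bp. The Meis1 region lay 1547 bp upstream with 6.02 in replicate 1 and 5.83 in replicate 2, nearly equal. Egr1, an immediate early factor that holds HSC in quiescence in mice, had 5.08 in replicate 1 and 4.68 in replicate 2 at 3404 bp. None of 25 stem cell surface genes had one. Cytokine receptors had 2 of 28: Csf2rb, the shared beta chain of the receptors for interleukin 3 and GM-CSF, had 8.51 in replicate 1 and 6.65 in replicate 2 at 4748 bp, and the tumor necrosis factor receptor gene Tnfrsf1a had 4.44 in replicate 1 and was absent from the IDR list of replicate 2. The more permissive list of replicate 2 held Tnfrsf1a at 3.73.

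AP-1 and immediate early genes had 4 of 24, all with values in the lower part of the range. Egr3 had 7.29 in replicate 1 and 3.71 in replicate 2 at 2246 bp, and the nuclear receptor gene Nr4a3 had 5.63 in replicate 1 and 5.48 in replicate 2 at 2247 bp. Ier2 (4.91) and Junb (4.15), a subunit of AP-1, were in the IDR list of replicate 1 only. The more permissive list of replicate 2 held Ier2 at 3.35 and Junb at 3.22. Cell cycle genes had 2 of 22, the pocket protein gene Rbl2 and the cyclin gene Ccnd1, neither of them in a replicate's own IDR list. Housekeeping genes had 2 of 20, among them Eef2, a translation elongation factor, with regions at 1440 and 3351 bp and signals of 5.17 and 3.84.

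Each list of mature blood cell genes held 0 to 2 flanked genes, too few to set against the 3.7% of all coding genes. Gp9 alone of 16 megakaryocyte genes had a region, 76 bp from the start of the lincRNA Gm43904. It had 8.47 in replicate 1 and none in the IDR list of replicate 2, whose more permissive list held it at 3.76. None of 19 erythroid or 12 mast cell genes had one. B cell genes had 1 of 18, Igll1, a part of the pre-B cell receptor, with 10.9 in replicate 1 and 6.49 in replicate 2. T and NK cell genes had 2 of 22, the kinase gene Lck (10.1 in replicate 1 and 7.51 in replicate 2) and Id2, in neither IDR list. The 1 of 22 granulocyte and monocyte genes was Lyz2, which encodes lysozyme, 3456 bp upstream; it was in the IDR list of replicate 2 (8.74) and not in that of replicate 1, where its ranked signal was 5.49, and its window has another match of the kind described above.

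Genes of other tissues also had some. Endothelial genes had 3 of 12: Egfl7, a secreted factor of endothelial cells, had 10.9 in replicate 1 and 7.59 in replicate 2 at 1393 bp, the cadherin gene Cdh5 11.0 in replicate 1 and 6.11 in replicate 2 at 2120 bp, and the nitric oxide synthase gene Nos3 6.50 in replicate 1 and 5.01 in replicate 2 at 3790 bp. Stromal genes had 2 of 14, Adipoq (12.2) and the chemokine gene Cxcl12 (8.70), both in the IDR list of replicate 1 only. In the more permissive list of replicate 2 Adipoq had 5.91 and Cxcl12 5.98. Neural genes had 3 of 14, with Slc17a7, a glutamate transporter, highest at 11.5 in replicate 1 and 6.08 in replicate 2, and the 12 hepatocyte and 12 muscle genes had none. The lists overlap HSC expression to an unknown degree, and whether cells of other types contributed was not tested.

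At the level of the class, the replicates agreed less in the flank than at promoters, and about as often as in the other classes compared. Both IDR lists held 413 flanking regions (49.8%), against 80.4% of promoter regions, 49.4% of the downstream flank and 50.8% of far intergenic regions, with a background of 61%. Fisher's exact test separated the flank from promoters (log2 odds ratio -2.05, SE 0.11, adjusted p = 2.81e-78). The other differences were 0.02 (SE 0.13, exact adjusted p = 0.947) against the downstream flank and -0.06 (SE 0.10, exact adjusted p = 0.707) against far intergenic regions. Replicate 1 alone held 228 (27.5%), replicate 2 alone 45 (5.42%), and neither list held 144 (17.3%), which entered the strict list on the comparison of both libraries. In the same order the shares were 31.0%, 5.48% and 14.1% in the downstream flank and 29.6%, 5.37% and 14.3% in far intergenic regions. Promoter regions had 13.2%, 2.15% and 4.24%. The excess of replicate 1 was thus not particular to the flank. In all, replicate 1 held 641 (77.2%; background 84.6%) and replicate 2 held 458 (55.2%; background 65.3%). In the more permissive lists of each replicate 800 (96.4%) were present in both, 5 were missing from replicate 1 and 27 from replicate 2. The median signal was 7.22 in replicate 1 and 5.27 in replicate 2. Ranks of signal in the 2 replicates had a Spearman rho of 0.66 over the 800 flanking regions, against 0.79 for promoter regions, 0.61 for the downstream flank and 0.62 for far intergenic regions; these are correlations across regions.

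**Figure D5:**
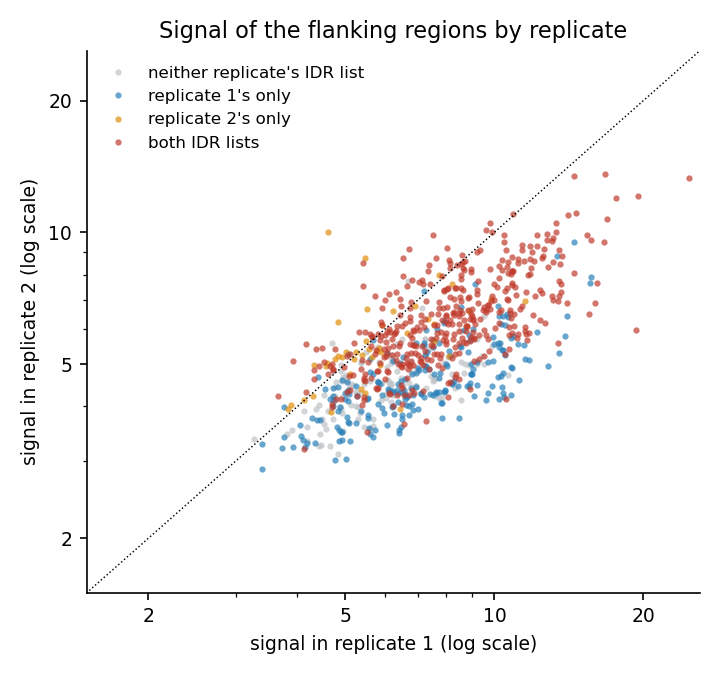
Signal of the flanking regions present in both ranked lists, replicate 1 against replicate 2 on log axes, colored by the IDR lists that hold them; the dotted line is equality. Most points lie below the line, with medians of 7.22 in replicate 1 and 5.27 in replicate 2.

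A few regions passed IDR in one replicate and appeared nowhere in the other's lists. There were 9 such in replicate 1, led by Aldoart2 (9.54), an aldolase gene of the testis, Dact2 (9.13), an inhibitor of Wnt signalling, and Pebp4 (8.22), and including Gnai3 (6.35), a G protein subunit, Rnh1 (5.63), the ribonuclease inhibitor, and Gm20219 (6.65). Replicate 2 had 1, at the ephrin gene Efna5 (4.72). The same counts are not given here for other classes, so 9 and 1 are not read as a trait of the flank. Absence from the more permissive lists was commoner in replicate 2 in each class compared. It was 76 against 7 in replicate 1 for promoter regions, 22 against 0 for the downstream flank and 182 against 19 for far intergenic regions.

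Known upstream elements of stem and progenitor genes had no match in the strict list, and some had a match below it. Of 5 elements looked for within 500 bp of their described distance, none matched a region of the main list. A described distance can be counted from another TSS than the one used here, so an unmatched element is not shown to be closed. The Tal1 element was matched by a region whose summit lay 3654 bp upstream in the replicated and pooled lists, with a signal of 3.71; replicate 1 had 4.56 and placed it in its IDR list, and replicate 2 had 3.09 and did not. The Il7r element was matched in the replicated list only, at 3500 bp with 3.52. A summit 4112 bp upstream of Gata2, near another described element that was added after these values were seen, had 4.43 in the pooled list, 5.07 in replicate 1 and 3.39 in replicate 2. The elements nearer to Gata2 and that of Gata1 were matched in none of the 10 lists examined. Both matched values of replicate 2 lay below its flanking median of 5.27. That median was taken over main-list regions present in both ranked lists. These matched regions missed the main list, so low values were likely from that choice alone, and no conclusion is drawn.

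More genes were flanked in the more permissive lists. In the pooled list 2381 genes (10.9%) had an upstream region, among them 9 of 30 stem cell factors, 11 of 24 immediate early genes and 11 of 22 granulocyte and monocyte genes. Most of the last of these were listed in replicate 1 alone. In the ranked list of replicate 1, 12 of 22 granulocyte and monocyte genes had a flanking region (background 9.77%), against 1 of 22 in that of replicate 2 (background 7.01%); immediate early genes stood at 11 of 24 in replicate 1 and 9 of 24 in replicate 2, and stem cell factors at 8 of 30 in replicate 1 and 7 of 30 in replicate 2. Mpo, the granule enzyme myeloperoxidase, had 7.37 in replicate 1 at 3262 bp, Camp, an antimicrobial peptide, 7.56 at 4922 bp, and the chemokine receptor gene Cx3cr1 7.87 at 3486 bp; none of the 3 was listed in replicate 2. Elane (4.403), Ctsg (4.56 and 4.26) and Cebpe (4.43 at both of its regions) were likewise listed in replicate 1 only. The granulocyte and monocyte list and the genes named from it here were chosen after their values were seen. Of the 15 pooled-list regions of this gene list, 13 had a value in replicate 1 alone, 1 had a value in neither ranked list and 1, at Lyz2, had a value in both. Replicate 1 alone had a value at 2 of 13 such regions of immediate early genes and at 5 of 11 of stem cell factors. The share over all pooled flanking regions is not given here, so how unusual 13 of 15 is cannot be judged. The whole ranked list was also longer in replicate 1, at 79885 regions against 59337 in replicate 2. Lower depth, fewer cells of a type and less accessible chromatin per cell cannot be told apart in these bulk libraries.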

How the data were processed

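ATAC-seq peak lists of 2 libraries of mouse HSC were used as deposited: narrowPeak files on mm10, per the file headers and the notes deposited with them. The signal value of each peak is the authors' column and was not rescaled; the sources used here name no aligner, peak caller or read filter. Main list: conservative IDR thresholded peaks of both replicates. Peaks overlapping by at least 1 base were merged, and classes were set from the summit with GENCODE M21. Sequence came from GRCm38.p6 (RefSeq), the same chromosomes as mm10. Shares were compared by two-sided Fisher's exact tests on counts of regions with Benjamini-Hochberg adjustment (threshold 0.05; odds ratios with 0.5 added per cell); intervals are Wilson or exact Poisson at 95% and cover counting error only. Python 3.11.15, pandas 2.3.3, scipy 1.17.1, pysam 0.24.0 and BLAST+ 2.17.0 were used, and the functions were tested on simulated data. Genes named were the 12 regions of highest signal, up to 3 per gene list, the known elements and regions of 1 replicate only; others are said to be chosen after their values were seen, as were the motif, RefSeq and noncoding examples, which are those of high signal. The members and lists were chosen with earlier results of these data known. Of 323 list entries, 322 matched a gene. A few genes that the naming rule selects are not reported here.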

Additional observations from a re-analysis of the deposited data

How the results depend on the processing

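No paired analysis was possible because there is 1 group of 2 libraries. Of 438 values under 20 alternatives, 369 kept direction and side of the threshold. The number of flanking regions was 1284, 2337 and 2666 in the IDR thresholded, replicated and pooled lists and 198 at or above the median signal; from the IDR list of one replicate at a time it lay between 526 and 919. The flanked genes numbered 1231, 2119, 2381 and 197 in the same settings, and 515 to 881 by replicate. The flanked genes with a promoter region were 61.0%, 72.5%, 74.1% and 8.12%, 47.2% with gene 5′ ends only, and 41.8% to 55.05% by replicate. Motif comparisons that passed numbered 12 at or above the median signal, 9 without CpG-rich regions and 13 among wide regions.

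Values here are log2 odds ratios of flanking regions against the class named. The share in both replicates against the downstream flank, near 0 in the report, turned to -0.15, -0.11 and -0.12 in the 3 wider lists, -0.028 with an overlap of 50% of both regions and -0.84 with the permissive list of each replicate; against far intergenic regions it turned to 0.59 at or above the median signal, 0.12 among wide and 0.16 among narrow regions. None of these passed. The noncoding share against promoters no longer passed at or above the median signal (-0.39), within 2000 bp (-0.12), without CpG-rich regions (-0.47) and among wide regions (-0.076), and ranged from -0.74 to -0.46 by replicate, not passing without replicate 1; against the downstream flank it turned to 0.20 within 500 bp, 0.35 within 2000 bp and 0.26 among narrow regions, and against far intergenic regions to 0.19 at or above the median signal, 0.30 within 2000 bp and 0.085 among wide regions, and ranged from -0.068 to 0.072 by replicate. The CpG-rich share against the downstream flank was lost at or above the median signal (0.34), at 55% GC and a ratio of 0.65 (0.58) and among wide regions (0.70), with 0.37 to 0.92 by replicate, not passing without replicate 1; the width share was lost at or above the median signal against the downstream flank (-0.54) and far intergenic regions (-0.52). CTCF against promoters no longer passed at or above the median signal (1.98) or among wide regions (0.023); against far intergenic regions it turned to -0.13 at or above the median signal and -1.38 among wide regions, and passed in the replicated (0.43) and pooled (0.40) lists, as did PU.1 in the pooled list (-0.27). GATA against far intergenic regions no longer passed without replicate 1 (-0.25), without replicate 2 (-0.39), at or above the median signal (-0.46), within 50 bp of the summit (-0.49), without CpG-rich regions (-0.46) or among wide (-0.56) or narrow (-0.43) regions, nor the RUNX core at or above the median signal (-0.185). SP/KLF against the downstream flank was lost at or above the median signal (0.31), within 50 bp (0.45) and among wide regions (0.19). Without CpG-rich regions the PU.1 (0.49), GATA (0.40) and NRF1 (-0.58) differences from promoters no longer passed, and that of the RUNX core was 0.64. The causes were not tested. Restrictions by width, CpG content, noncoding starts and masking were chosen after seeing the data.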
